A study of Mus musculus with 8 samples.

Results

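The genes described here encode the histone variants that lie outside the replication-dependent histone clusters, named in the older mouse nomenclature: H2afx (H2A.X), H2afz and H2afv (the paralogs of H2A.Z), H2afy (macroH2A1), H2afj (H2A.J), H3f3a and H3f3b (both H3.3), H1f0 (H1.0), H1fx (H1x) and Cenpa (CENP-A). They were taken by name. Of these 10 symbols, 9 could be matched to a row of the count table, which holds 50686 genes; H1f0 could not be matched by its identifier and has no value here. All 9 matched genes passed the filter on low counts, H1fx with few reads. The data are RNA-seq counts of 8 libraries from mouse embryonic stem cells (mESCs), 1 library for each combination of location (Space, aboard the SJ-10 satellite, or Ground), genotype (R9wt, wild type, or R9del, Rad9-/-) and culture duration (D1, 1 day, or D5, 5 days). The Ground cells were kept in the same type of payload with the same procedure, and all cells were fixed with RNAlater inside the culture devices. The paper lists microgravity, radiation, other stress in space and vibration at launch and return as differences between Space and Ground. These cannot be told apart here, and the share of cells that detached in flight was not known. The D1 and D5 cultures stood in device groups with separate temperature control and were seeded with different cell numbers, so culture duration cannot be told apart from these settings. For D5 more R9del than R9wt cells were seeded, so at D5 genotype cannot be told apart from the cell number seeded. Each group comparison therefore set 4 libraries against 4 that share no condition-level replicate, and it was not stated whether the R9del cells were 1 clone.

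A core histone variant replaces a canonical histone of the nucleosome, and most variant mRNAs are polyadenylated and made outside S phase as well, unlike the mRNAs of the clustered histone genes. H2afx is known to give both a polyadenylated mRNA and a stem-loop mRNA of the clustered kind. H2A.X carries a C-terminal serine that is phosphorylated around DNA double-strand breaks, H2A.Z marks promoters and enhancers, macroH2A is enriched in repressed chromatin, H3.3 is deposited independently of replication in active genes and, by another chaperone, in telomeric and repeat chromatin, and CENP-A defines the centromere. In embryonic stem cells H2A.X and H3.3 are known to be abundant, whereas macroH2A and the differentiation-linked linker histone H1.0 are known to rise as cells differentiate.

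Of the members, 3 have a single exon (H2afx, H2afj and H1fx), and the coding sequences of these 3 end 89.4% to 93.1% of their codons in G or C, against 44.5% to 70.1% in the other 6. The first 60 coding bases are shown for 2 genes of each kind, because this composition returns beside the difference between Space and Ground; capitals mark G or C at the third base of a codon, 17 and 18 of 20 codons in H2afx and H2afj and 13 and 11 in H2afz and H2afv (mm9 annotation).
H2afx: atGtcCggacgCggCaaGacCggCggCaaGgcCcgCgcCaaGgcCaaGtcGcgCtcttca
H2afj: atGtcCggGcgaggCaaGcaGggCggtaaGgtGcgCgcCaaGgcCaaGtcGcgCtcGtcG
H2afz: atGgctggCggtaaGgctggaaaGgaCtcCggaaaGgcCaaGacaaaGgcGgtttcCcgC
H2afv: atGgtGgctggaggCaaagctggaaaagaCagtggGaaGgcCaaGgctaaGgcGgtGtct
The feature that sets H2A.X apart from canonical H2A is its extended C-terminus, shown as the last 60 coding bases with the codon of serine 140 (counted with the initiator methionine) in capitals.
H2afx C-terminus: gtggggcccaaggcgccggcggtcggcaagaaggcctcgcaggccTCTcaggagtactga

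Both H3.3 genes encode the same protein, with 136 of 136 residues identical, from coding sequences that differ at 95 of 411 bases. Their first 60 coding bases are shown with the 13 differing bases in capitals, to show how far the genes differ where their proteins do not.
H3f3a: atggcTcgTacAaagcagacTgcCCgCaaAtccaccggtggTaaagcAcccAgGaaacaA
H3f3b: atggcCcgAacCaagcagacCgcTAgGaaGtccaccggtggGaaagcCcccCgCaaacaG
In the annotation used, the H2A.Z proteins of H2afz and H2afv were identical at 124 of 128 aligned residues and their coding sequences at 306 of 387 aligned bases. H2A.X and H2A.J were identical at 119 of 128 aligned residues.

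The libraries held 58238440 to 96416907 counts, so an absence of reads allows up to 3 counts, or 0.0335 to 0.0503 CPM (counts scaled by TMM to a common library total; this covers counting error only). Rad9, the deleted gene, was at 70.3 to 93.4 CPM in the R9wt libraries and at 20.8 to 28.6 CPM in the R9del libraries (log2 fold change -1.77, adjusted p = 0.0270 by edgeR's quasi-likelihood test). Summed over the 9 of 10 mESC markers in the table, expression was 4425 to 6005 CPM in Space and 5234 to 8015 CPM on the Ground; Sox2 was lower in Space (log2 fold change -0.97, adjusted p = 0.0269) and Esrrb higher (1.16, adjusted p = 0.00794). The 8 fibroblast markers summed to 34.0 to 53.6 CPM in Space and 26.4 to 61.2 CPM on the Ground, with Col3a1, Lum, Postn and Fap under 1 CPM in every library. The 10 proliferation markers summed to 3085 to 3787 CPM in Space and 2583 to 3299 CPM on the Ground, although one of them, the cyclin gene Ccna2, was lower in Space, at 47.7 to 69.5 CPM against 171 to 292 CPM (log2 fold change -2.13, adjusted p = 0.000368). The summed primitive endoderm markers were 16.2 to 196 CPM in Space and 29.7 to 61.2 CPM on the Ground. At D5 the sums were 140 (R9wt) and 196 (R9del) CPM in Space, against 49.4 and 61.2 CPM on the Ground. At D1 they were 16.2 and 51.0 CPM against 29.7 and 35.6 CPM. The median log2 fold change of the 6 markers in Space was 0.66. Sox17 alone was called, lower in Space at 0.0597 to 0.770 CPM against 2.42 to 6.11 CPM (log2 fold change -3.92, adjusted p = 0.0181). The parts of these values in the results below were not tested. In bulk RNA, fewer cells of a type and less RNA per cell cannot be told apart.

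The comparison of Space with Ground asked which variant transcripts differed after culture in orbit. Of the 9 members, 4 were lower in Space at an adjusted p under 0.05 (H2afx, H2afj, H2afy and H2afv) and 0 were higher. Over all 20544 genes tested, 5.31% were called lower and 1.00% higher. The number of genes called higher, 206, was less stable than the 1091 called lower: without any 1 library it was 48 to 177 (48 without Ground R9del D5), and it was 104 with no filter on low counts and 806 with DESeq2, where those called lower numbered 790 to 1063, 937 and 1578. At the study's threshold, a fold change of at least 2 with an unadjusted p under 0.05, these same 4 of 9 members were lower, against 8.39% of all genes. The median log2 fold change was -0.86 over the members and 0.01 over all genes tested.

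**Figure D1:**
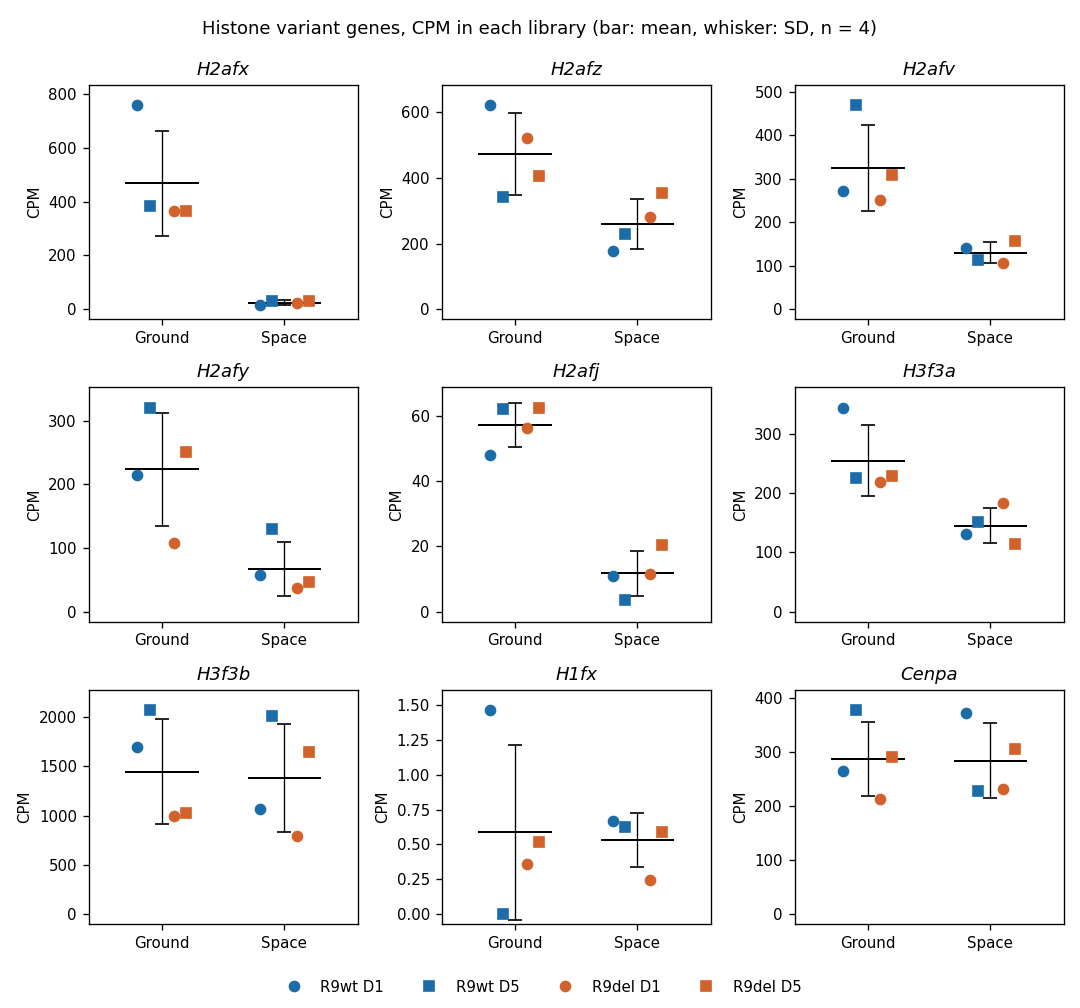
Expression of the 9 matched histone variant genes in CPM (linear axes) in each of the 4 Ground and 4 Space libraries; points are libraries (colour, genotype; shape, culture duration), the bar is the mean and the whisker the SD. The Space libraries lie below all Ground libraries for H2afx, H2afv, H2afj and H3f3a, and overlap them for the other 5 genes.

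H2afx lies at chr9:44142798-44144154 of mm9, plus strand, as a single exon. Its expression on the Ground was 759 CPM in R9wt D1, 383 in R9wt D5, 364 in R9del D1 and 367 in R9del D5. In Space it was 14.2 CPM in R9wt D1, 31.9 in R9wt D5, 23.2 in R9del D1 and 30.5 in R9del D5. Every Space library was thus below every Ground library, and the highest Ground value was the R9wt D1 culture, whose Space counterpart was the lowest of all. The mean was 25.0 ± 8.11 CPM in Space and 468 ± 194 CPM on the Ground (SD, n = 4 each), 18.7-fold lower in Space. The fitted log2 fold change was -4.23 (SE 0.37, adjusted p = 0.000134 by edgeR's quasi-likelihood test). The 2-sided exact permutation test over libraries gave p = 0.0286, the smallest that 4 against 4 libraries allow. In the matched pairs the log2 ratio of Space over Ground was -5.73 in R9wt D1, -3.58 in R9wt D5, -3.97 in R9del D1 and -3.59 in R9del D5. Without the Ground R9wt D1 library the log2 fold change was -3.89 (adjusted p = 0.000379).

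Dpagt1, 1115 bases from H2afx, was at 24.5 to 45.4 CPM in Space and 13.0 to 49.6 CPM on the Ground (log2 fold change 0.09, adjusted p = 0.940 by edgeR's quasi-likelihood test), so its groups overlapped. This neighbour was chosen after its values were seen. Of the 43 tested genes within 1 Mb on either side of H2afx, 0 were called lower and 1 higher in Space. Over all genes 5.31% were called lower and 1.00% higher, so few calls would be found among 43 genes in any case.

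H2A.X shares short stretches of coding sequence with the clustered H2A genes: 6.27% of the 50-base words of H2afx also occur in clustered genes. Summed over the 19 clustered genes and pseudogenes in the table that share at least 1% of these words, expression was 324 CPM in Ground R9wt D1, 104 in Ground R9wt D5, 220 in Ground R9del D1 and 171 in Ground R9del D5, and it was 1.75 to 6.37 CPM in the Space libraries. This sum was therefore also lower in every Space library than in every Ground library, which need not hold for each gene in it. Of the 56 clustered protein-coding Hist genes, 45 were tested and 11 were called lower in Space, against 5.31% of all genes. Under 1 CPM in every library were 24 of the 56. The libraries were made with mRNA kits and most mRNAs of clustered genes are not polyadenylated, so these counts may cover only a part of them. Of the 45, 13 share such words with H2afx, and 10 of the 11 called lower are among these 13. Whether reads were split between H2afx and these genes was not tested. Their sum was 0.0549 to 0.605 times the H2afx value of the same library.

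H2A.Z is encoded by H2afz, at chr3:137527451-137529886 (mm9, plus strand), and H2afv, at chr11:6327229-6344446 (mm9, minus strand), with up to 5 exons each. H2afv was at 271 CPM in Ground R9wt D1, 469 in Ground R9wt D5, 251 in Ground R9del D1 and 309 in Ground R9del D5. It was at 142 CPM in Space R9wt D1, 114 in Space R9wt D5, 106 in Space R9del D1 and 157 in Space R9del D5. The groups did not overlap, and the mean was 130 ± 23.8 CPM in Space and 325 ± 99.01 CPM on the Ground (SD, n = 4 each), 2.5-fold lower. Its fitted log2 fold change was -1.32 (SE 0.25, adjusted p = 0.0102; exact permutation p = 0.0286).

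H2afz was at 622 CPM in Ground R9wt D1, 341 in Ground R9wt D5, 522 in Ground R9del D1 and 406 in Ground R9del D5, and at 176, 228, 282 and 355 CPM in the Space libraries of the same order. The Space R9del D5 library was above the lowest Ground library, so the groups overlapped, although each Space library was below its matched Ground library. The log2 fold change of -0.86 (SE 0.27) did not pass the adjusted threshold (adjusted p = 0.103; exact permutation p = 0.0571). Much of the H2afz transcript recurs elsewhere, since 40.6% of its 50-base words are found at other loci and 37.7% in Tmcc1, a gene of a transmembrane coiled-coil protein. Tmcc1 was at 0.908 to 1.02 times the H2afz value in each of the 8 libraries, and its log2 fold change in Space was -0.78 (SE 0.27, adjusted p = 0.146). Tmcc1 was also the gene whose log2 CPM was most like H2afz (Pearson r = 0.995 over 8 libraries). These libraries share their depth and scaling, and whether the same reads were counted for both genes was not tested. No 50-base word of H2afv occurs elsewhere, so its values do not carry this limit.

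**Figure D2:**
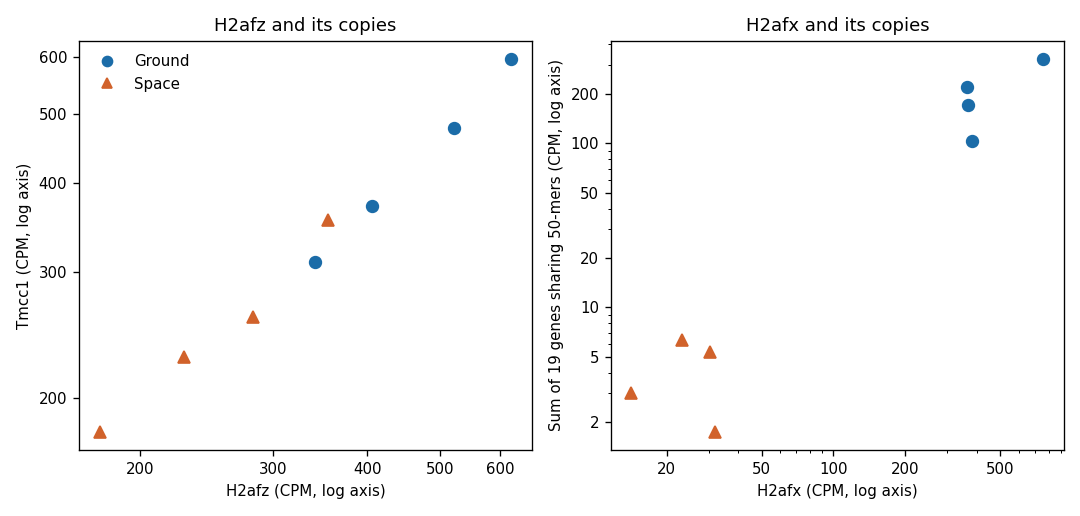
Expression in each library of H2afz against Tmcc1 (left) and of H2afx against the summed clustered genes and pseudogenes that share 50-base words with it (right), both axes in CPM on log scales; circles are Ground and triangles Space libraries. Tmcc1 follows H2afz at 0.908 to 1.02 times its value, whereas the sum on the right is 0.0549 to 0.605 times H2afx.

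MacroH2A1, which joins an H2A-like part to a large macro domain, is encoded by H2afy at chr13:56174980-56237722 (mm9, minus strand, up to 9 exons). Its expression was 215 CPM in Ground R9wt D1, 321 in Ground R9wt D5, 108 in Ground R9del D1 and 251 in Ground R9del D5. In the Space libraries it was 56.9 CPM in R9wt D1, 130.0 in R9wt D5, 37.3 in R9del D1 and 46.1 in R9del D5. Space R9wt D5 lay above Ground R9del D1, and all 4 matched pairs were lower in Space. The log2 fold change was -1.73 (SE 0.44, adjusted p = 0.0490; exact permutation p = 0.0571). This call stands close to the threshold: it was lost in 6 of the 8 fits that left out 1 library (adjusted p from 0.105 to 0.135 in those 6) and with a GC offset for each library (log2 fold change -1.18, adjusted p = 0.154). With the matched pairs as a block it was kept (adjusted p = 0.00254). The paralog H2afy2, encoding macroH2A2, was at 6.11 to 9.45 CPM in Space and 28.8 to 57.1 CPM on the Ground (log2 fold change -2.32, SE 0.29, adjusted p = 0.000863).

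H2A.J, a variant that differs from canonical H2A mainly at its C-terminus, comes from the single-exon gene H2afj at chr6:136756769-136758595 (mm9, plus strand). H2afj was at 47.9 CPM in Ground R9wt D1, 62.1 in Ground R9wt D5, 56.1 in Ground R9del D1 and 62.4 in Ground R9del D5, and at 11.02, 3.69, 11.6 and 20.5 CPM in the Space libraries of the same order. All Space libraries lay below the Ground libraries, with Space R9wt D5 lowest. The mean was 11.7 ± 6.89 CPM in Space and 57.1 ± 6.79 CPM on the Ground (SD, n = 4 each), 4.88-fold lower. The fit gave a log2 fold change of -2.29 (SE 0.44, adjusted p = 0.0115; exact permutation p = 0.0286).

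H3.3 comes from H3f3a, at chr1:182730963-182744074 (mm9, minus strand), and H3f3b, at chr11:115883226-115889276 (mm9, minus strand). H3f3a was at 344 CPM in Ground R9wt D1, 226 in Ground R9wt D5, 219 in Ground R9del D1 and 228 in Ground R9del D5, and at 131, 152, 183 and 114 CPM in the Space libraries of the same order. These groups did not overlap, but the log2 fold change of -0.81 (SE 0.23) missed the adjusted threshold (adjusted p = 0.0693; exact permutation p = 0.0286). It passed with edgeR's exact test (adjusted p = 0.0339), with DESeq2 (0.0361) and with genotype and duration as covariates (0.0424), and with the GC offset the log2 fold change was -0.27 (adjusted p = 0.593). Of the H3f3a exons, 22.8% overlap genes on the opposite strand, and 25.4% of its 50-base words occur elsewhere, as do 19.9% of those of H3f3b, so the assignment of reads to both genes is uncertain.

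H3f3b was the most abundant member. It was at 1699.7 CPM in Ground R9wt D1, 2071 in Ground R9wt D5, 994 in Ground R9del D1 and 1022 in Ground R9del D5. The Space values were 1065 CPM in R9wt D1, 2011 in R9wt D5, 797 in R9del D1 and 1646 in R9del D5. The groups overlapped over most of their range, and the log2 fold change of -0.07 (SE 0.35, adjusted p = 0.948) was smaller than its error. The sign of this value turned with scaling by library size alone (0.02) and with the GC offset (0.48, adjusted p = 0.498).

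CENP-A, the H3 variant of centromeric nucleosomes, is encoded by Cenpa at chr5:30969150-30977200 (mm9, plus strand, up to 7 exons). It was at 265 CPM in Ground R9wt D1, 378 in Ground R9wt D5, 214 in Ground R9del D1 and 291 in Ground R9del D5, and at 372, 228, 231 and 307 CPM in the Space libraries of the same order. Both groups covered nearly the same range, with means of 284 ± 68.7 CPM in Space and 287 ± 68.6 CPM on the Ground (SD, n = 4 each; log2 fold change -0.01, SE 0.24, adjusted p = 0.986). None of the 50-base words of Cenpa occurs elsewhere.

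The linker histone H1x comes from the single-exon gene H1fx at chr6:87930416-87931476 (mm9, minus strand). It was at 1.47 CPM in Ground R9wt D1, 0.359 in Ground R9del D1 and 0.519 in Ground R9del D5, and had 0 counts in Ground R9wt D5, which allows up to 0.0335 CPM. In Space it was at 0.672, 0.622, 0.242 and 0.587 CPM in R9wt D1, R9wt D5, R9del D1 and R9del D5. The libraries held 0 to 126 counts of it, and the log2 fold change of -0.14 (SE 1.05, adjusted p = 0.965) was smaller than its error. A gene on the opposite strand overlaps 20.1% of the H1fx exon.

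Counted by overlap, 4 of 9 members had all Space libraries below all Ground libraries (H2afx, H2afv, H2afj and H3f3a), against 9.38% of all genes tested. Of the 9 members, 6 were lower in Space in 4 of 4 matched pairs (these 4 with H2afz and H2afy), against 18.1% of all genes. None of the members was higher in 4 of 4 pairs. The members with calls span both genotypes and both durations, since the matched log2 ratios of the 4 called genes lay between -5.73 and -0.93.

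**Figure D3:**
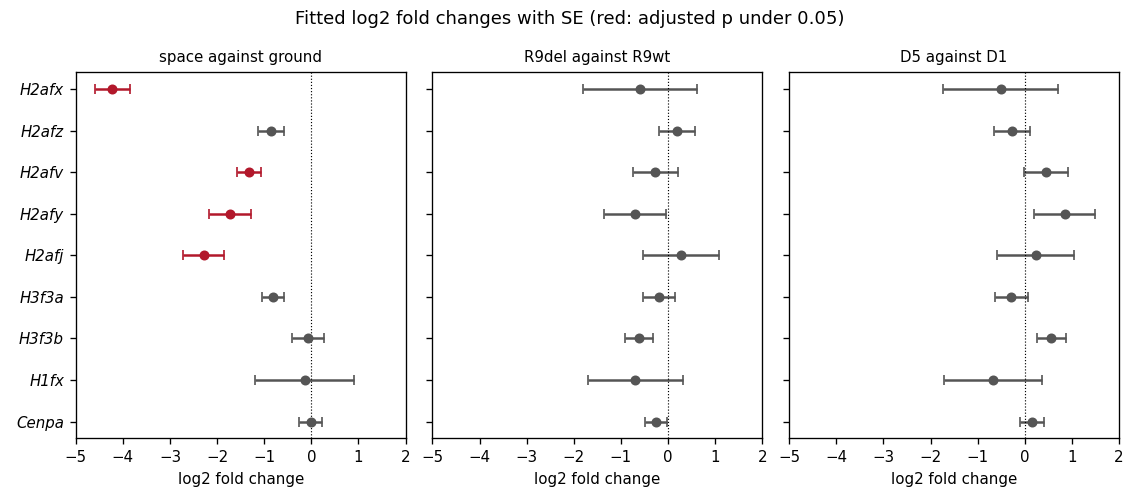
Fitted log2 fold changes of the 9 matched genes in the 3 group comparisons (4 libraries against 4 each), with horizontal bars of 1 SE from edgeR's quasi-likelihood fit; red marks an adjusted p under 0.05 over all 20544 genes. The 4 red points, all in the comparison of Space with Ground, run from -4.23 for H2afx to -1.32 for H2afv.

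On the RPKM scale, which divides CPM by the exon length in kilobases so that genes can be set side by side, the order of mean levels on the Ground was H3f3b (486 ± 178), H2afx (345 ± 143), H2afz (266 ± 69.96), H2afv (198 ± 60.4), Cenpa (115 ± 27.4), H3f3a (72.6 ± 17.1), H2afy (32.8 ± 13.1), H2afj (31.3 ± 3.72) and H1fx (0.552 ± 0.589; SD, n = 4 each). Neighbours in this order from H3f3b to H2afv differed by less than the larger SD of each pair, as did H2afy and H2afj. In Space, H3f3b was still first at 464 ± 185 RPKM, followed by H2afz at 147 ± 43.1, Cenpa at 114 ± 27.4, H2afv at 79.2 ± 14.5 and H3f3a at 41.4 ± 8.54. H2afx moved from rank 2 to rank 6, at 18.4 ± 5.98 RPKM.

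Within the 5 H2A variant genes, H2afx made up 33.5% to 49.4% of the summed RPKM in the Ground libraries and 4.98% to 9.69% in the Space libraries. H2afz made up 22.8% to 38.6% on the Ground and 47.1% to 62.9% in Space, while its own CPM was lower in Space in every matched pair. The summed RPKM of the 5 genes was 758 to 1132 on the Ground and 211 to 336 in Space, so both the sum and its make-up differed between the locations. H3f3b supplied 84.1% to 91.5% of the summed H3.3 RPKM on the Ground and 83.7% to 94.4% in Space, and the H3.3 sum was 396 to 761 RPKM on the Ground and 320.2 to 719 RPKM in Space.

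**Figure D4:**
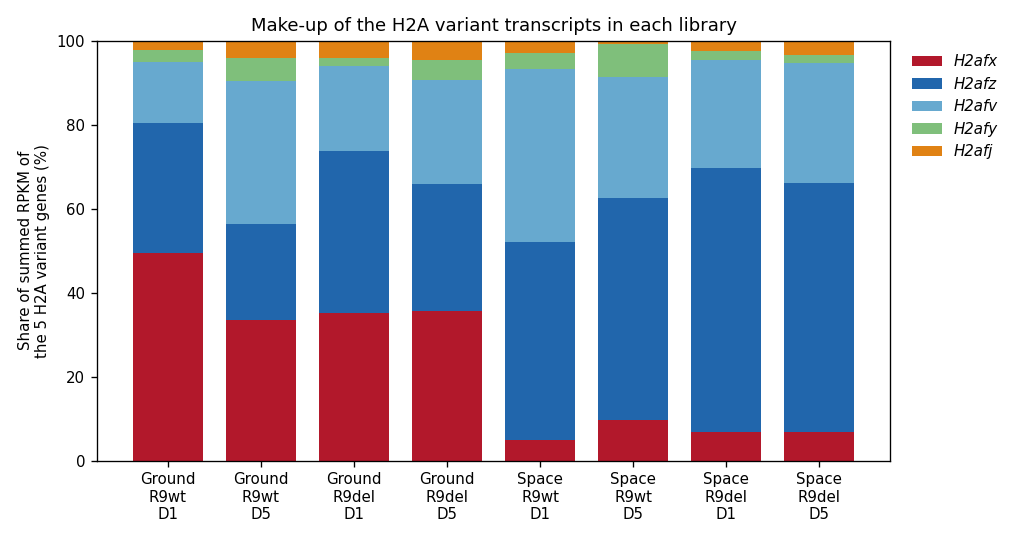
Share of each gene in the summed RPKM of the 5 H2A variant genes (vertical axis, %), 1 bar for each library. H2afx takes 33.5% to 49.4% in the 4 Ground bars and 4.98% to 9.69% in the 4 Space bars.

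Ratios of CPM between genes within a library do not depend on its scaling. The ratio of H2afx to H2afz in CPM was 0.697 to 1.22 on the Ground and 0.0806 to 0.140 in Space, a difference of -3.35 in log2 CPM with a prior count of 2, without overlap (2-sided exact permutation p = 0.0286). Over the 9 ratio tests made (3 ratios in 3 comparisons), the Benjamini-Hochberg adjusted value of this p was 0.257. The ratio of H2afz to H2afv was 0.728 to 2.30 on the Ground and 1.24 to 2.66 in Space (exact permutation p = 0.429). The ratio of H3f3a to H3f3b was 0.109 to 0.223 on the Ground and 0.0692 to 0.230 in Space (exact permutation p = 0.257). These groups overlapped for both pairs of paralogs that encode nearly or fully the same protein.

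The difference between Space and Ground varied with the third-base content of G and C over all genes, and not in one direction only. Among 15405 tested genes with a complete coding sequence, the median log2 fold change in Space was -0.29 for the 837 genes with under 40% G or C at the third base of codons, of which 9.20% were called lower, 0.16 for the 3940 genes with 50% to 60%, -0.74 for the 76 genes with 85% to 90% and -1.09 for the 50 genes with 90% or more, of which 36.0% were called lower. H2afx and H2afj, with 91.0% and 93.1%, had log2 fold changes of -4.23 and -2.29, against medians of -0.78 over the 45 genes and -1.01 over the 40 genes within 2.5 percentage points of each. H1fx, at 89.4%, had -0.14 against -0.82 over 48 such genes. H2afv and H2afy were at 59.2% and 65.1%, where the median gene differed by 0.11 and 0.04. By the most GC-rich 200-base window of the exons the members fell in other bins. H2afy (79.5%), H2afz (77.5%), H3f3b (76.5%) and H3f3a (75.5%) were among the 2467 tested genes with 75% to 80%, whose median log2 fold change was -0.42 and of which 20.7% were called lower in Space. H2afj (74.5%), H2afx (74.0%), H2afv (72.0%) and Cenpa, at the lower edge, were among the 3017 with 70% to 75%, with a median of -0.06 and 8.82% called lower. H1fx (81.0%) was among the 1519 with 80% or more, where the median was -0.14 and 7.90% were called lower, so the share did not rise steadily with this measure. With a GC offset for each library, made from this window and chosen after seeing the data, the log2 fold changes were -4.11 for H2afx, -2.15 for H2afj and -1.19 for H2afv, which kept their calls. That offset brought H2afz to -0.33 (adjusted p = 0.586). H2afx, H2afj and H2afv lay in the window bin with a median of -0.06, so this offset could move them little. No offset was made from third-base content, so whether their calls depend on that content was not tested.

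**Figure D5:**
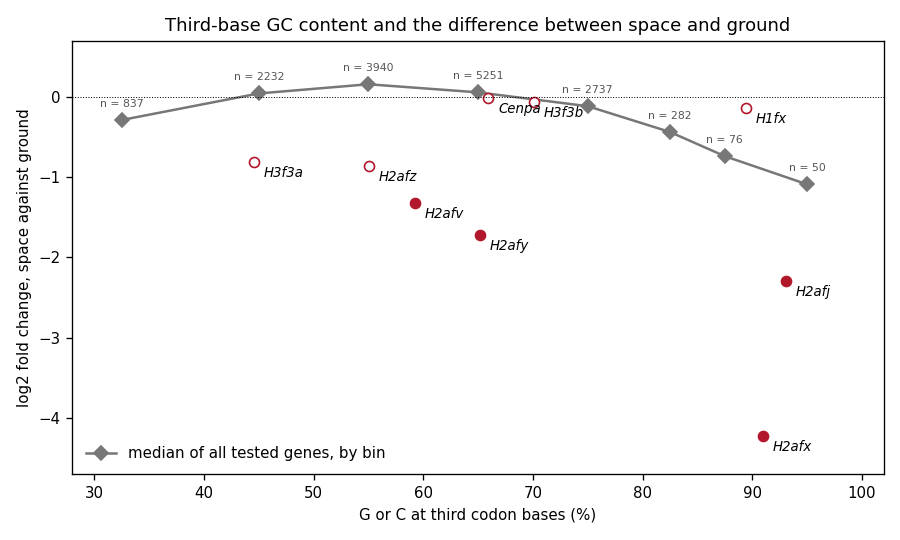
Log2 fold change of Space against Ground (vertical axis) by the share of G or C at the third base of codons (horizontal axis, %); diamonds are medians of all tested genes in bins, with the number of genes, and circles the 9 matched genes, filled where the adjusted p is under 0.05. H2afx and H2afj lie below the medians of genes like them in composition (-0.78 and -1.01), and H1fx above (-0.82).

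Promoters of 300 bases (250 before to 50 after the start) were found in RefSeq (GRCm38.p6) for 8 of the 9 matched genes, all but H2afx. The letters CCAAT, on either strand, occurred in the promoters of H2afz (3 times), H2afv (4), H2afj (3), H3f3a (1), H3f3b (4) and Cenpa (2), and not in those of H2afy and H1fx, while 37.4% of the 32851 promoters in the table hold them. TATAAA occurred in H3f3b (1) and in 13.6% of all promoters, TTTGAA in H2afv (1) and Cenpa (1) and in 17.9%, and GGGCGG in all of the 8 but H3f3b and in 35.7%, each on either strand; these motifs were counted independently of one another. The 150 bases before the start are shown for H2afj and H2afv, which were called lower in Space, and for Cenpa, which was not, with CCAAT or its reverse complement in capitals.
H2afj, chr6:136808098-136808247, plus strand: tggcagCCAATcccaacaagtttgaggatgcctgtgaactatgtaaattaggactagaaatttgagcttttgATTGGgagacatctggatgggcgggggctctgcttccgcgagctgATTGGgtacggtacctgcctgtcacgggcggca
H2afv, chr11:6444444-6444593, minus strand: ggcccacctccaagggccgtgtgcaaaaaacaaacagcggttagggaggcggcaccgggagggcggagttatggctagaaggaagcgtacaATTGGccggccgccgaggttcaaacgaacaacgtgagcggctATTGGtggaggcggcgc
Cenpa, chr5:30666736-30666885, plus strand: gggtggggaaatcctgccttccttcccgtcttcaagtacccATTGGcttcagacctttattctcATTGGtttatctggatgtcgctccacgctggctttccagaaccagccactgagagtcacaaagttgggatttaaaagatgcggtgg
The motif stood in the promoters of members that were called lower and of members that were not.

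The comparison of R9del with R9wt asked how the variant transcripts differed between the genotypes, which at D5 also differed in the cell number seeded. None of the 9 members passed, neither at an adjusted p under 0.05 (0 of 9, against 1.81% of all genes in either direction), nor at the study's threshold (0 of 9, against 13.8%), nor at an unadjusted p under 0.05 (0 of 9, against 20.2%). Over all genes, 214 were called higher and 157 lower, or 818 and 852 in the fit that blocks on matched pairs, but 0 without Ground R9wt D5, Ground R9del D1, Space R9wt D1 or Space R9del D1. No member separated the genotypes without overlap, against 14.3% of all genes. The H3.3 gene H3f3b was lower in R9del in 4 of 4 matched pairs, by 0.29 to 1.02 on the log2 scale, with means of 1115 ± 368 CPM in R9del and 1712 ± 461 CPM in R9wt (SD, n = 4 each; log2 fold change -0.62, SE 0.29, adjusted p = 0.269; exact permutation p = 0.0571). H2afy was also lower in 4 of 4 pairs, by 0.35 to 1.49, with means of 111 ± 98.9 and 181 ± 114 CPM (log2 fold change -0.71, SE 0.66, adjusted p = 0.588), and without 1 library the log2 fold change ran from -1.48 (without Ground R9del D5) to -0.27 (without Ground R9wt D5). With the matched pairs as a block, or with location and duration as covariates, H2afy was called lower in R9del (log2 fold change -0.86, adjusted p = 0.0499, and -0.85, adjusted p = 0.0458). H2afj was higher in R9del in 4 of 4 pairs, but by 0.01 to 0.23 in 3 of them and by 2.47 in the Space D5 pair. The protein of H2afx is a substrate of the checkpoint kinases that act with the Rad9 clamp. H2afx had a log2 fold change of -0.60 (SE 1.21, adjusted p = 0.824). On the Ground its R9del libraries were at 364 (D1) and 367 (D5) CPM, against 759 and 383 CPM in R9wt. In Space its R9del libraries were at 23.2 (D1) and 30.5 (D5) CPM, against 14.2 and 31.9 CPM, so the Space D1 pair was higher in R9del. The log2 fold change of H2afx was -0.12 with the matched pairs as a block and 0.46 without Ground R9wt D1.

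The comparison of D5 with D1 asked how the transcripts differed with culture duration. At an adjusted p under 0.05, 0 of 9 members and 0.00% of all genes were called by edgeR's quasi-likelihood test, with 898 genes at an unadjusted p under 0.05; DESeq2 called 84 genes higher and 12 lower and edgeR's exact test 34 and 2, none of them a member. At the study's threshold 0 of 9 members passed, against 3.49% of all genes, and 0 of 9 separated the durations without overlap, against 2.85%. H3f3b was higher at D5 in 4 of 4 matched pairs, by 0.04 to 1.05 on the log2 scale (log2 fold change 0.57, SE 0.31; adjusted p = 1.00 in the quasi-likelihood test, exact permutation p = 0.171). H2afy was likewise higher at D5 in 4 of 4 pairs, by 0.30 to 1.22 (log2 fold change 0.85, SE 0.65; exact permutation p = 0.343), with log2 fold changes from 0.45 (without Ground R9wt D5) to 1.47 (without Ground R9wt D1) when 1 library was left out.

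Whether one condition altered the difference made by another was tested with interaction terms. At an adjusted p under 0.05, 0 of 9 members passed for location by genotype, location by duration or genotype by duration, and 0 genes passed in all with edgeR's quasi-likelihood test, whereas DESeq2 called 12 genes higher and 12 lower, 33 and 45, and 20 and 140, no member among them. At an unadjusted p under 0.05 the counts were 0, 2 and 0 of 9 members, against 2.97%, 6.63% and 4.40% of all genes. The 2 were H2afx and H2afz in the interaction of location by duration. The difference between Space and Ground in H2afx was smaller at D5 than at D1 by 1.28 on the log2 scale (SE 0.54, unadjusted p = 0.0440, adjusted p = 0.720 by edgeR), and that in H2afz by 0.99 (SE 0.40, unadjusted p = 0.0383, adjusted p = 0.720).

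The proteins that deposit, exchange, modify or read these variants, and those that make histone mRNA, were taken as 8 lists of 87 genes in all, of which 84 were in the table and 78 were tested. In Space, 8 of the 78 (10.3%) were called lower and 0 higher, with a median log2 fold change of -0.15, against 5.31% of all genes called lower. None was called in R9del against R9wt or in D5 against D1.

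Of the 9 H3.3 chaperone genes, 2 were lower in Space. Asf1a, whose protein hands H3-H4 dimers to the HIRA and CAF-1 complexes, was at 2.54 to 5.23 CPM in Space and 26.7 to 44.4 CPM on the Ground (log2 fold change -3.14, SE 0.33, adjusted p = 0.000306). Dek, a chromatin protein with H3.3 chaperone activity, was at 44.4 to 94.7 and 153 to 280 CPM (-1.80, SE 0.29, adjusted p = 0.00410). The median of the list was 0.01, the same as over all genes, and none of the 8 genes of CAF-1 and H3-H4 handling was called.

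Of the 14 H2A.Z exchange genes, 2 were lower. Yeats4, whose GAS41 protein is a subunit of the SRCAP and Tip60 complexes, was at 7.26 to 33.65 CPM in Space and 40.8 to 96.2 CPM on the Ground (log2 fold change -2.02, SE 0.49, adjusted p = 0.0363). Nap1l1, a nucleosome assembly chaperone, was at 146 to 212 and 309 to 359 CPM (-0.94, SE 0.18, adjusted p = 0.0115). None of the 11 genes for H2A.X phosphorylation and reading was called, and their median log2 fold change was 0.26, while H2afx itself was at -4.23.

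Of the 11 tested genes of CENP-A deposition and the centromere, Cenpk alone was lower, at 2.46 to 5.90 CPM in Space and 11.1 to 19.9 CPM on the Ground (log2 fold change -2.03, SE 0.37, adjusted p = 0.00853). Of the 13 genes of histone gene transcription and processing, 2 were lower: E2f4, a transcription factor of cell-cycle genes (log2 fold change -2.35, SE 0.27, adjusted p = 0.000553), and Lsm11, a U7 snRNP protein that acts in 3' end formation of clustered histone mRNAs (-1.29, SE 0.27, adjusted p = 0.0176). E2f4 was at 60.4 to 115 CPM in Space and 295 to 500.3 CPM on the Ground. None of the 9 partners of macroH2A and linker H1 was called. Of the 11 other variant genes, 9 were in the table, 7 of them under 1 CPM in every library, among them the germ cell variants H1fnt, Hils1 and Hist1h1t, and of the 3 tested only H2afy2 was called.

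For each member the 3 tested genes with the most similar log2 CPM over the 8 libraries were taken as a description. For H2afx these were Kctd17 (Pearson r = 0.994), Tram1 (0.993) and Mybl2 (0.992), for H2afv Gm12918 (0.991), Gm10071 (0.990) and Npdc1 (0.989), and for H2afz, after Tmcc1, Ids (0.990) and Bola1 (0.989). For H2afy they were Bcl7c, 5430407P10Rik and Vax2 (0.979 each), and for H2afj Wscd1 (0.990), Fam43b (0.988) and Nkx6-2 (0.988). The H3.3 genes had no gene in common, with 2510046G10Rik (0.973), Hdgfrp3 (0.956) and Eif2s1 (0.953) for H3f3a and Tyro3 (0.974), Ppib (0.970) and Apba2 (0.955) for H3f3b. For Cenpa they were Stac2 (0.970), Il4i1 (0.964) and Abtb1 (0.958), and for H1fx Stc1 (0.973), Cnih (0.967) and Pgam1-ps2 (0.961). Among the members themselves, r over the 8 libraries was highest between H2afv and H2afj (0.890) and between H2afx and H3f3a (0.878), and it was 0.04 between H3f3a and H3f3b. All of these values share depth and scaling, and the split between Space and Ground contributes to them.

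H2afv and H3f3b lie on the same chromosome, 11. Of the 37 tested genes within 1 Mb of H2afv, 5 were called higher in R9del and 0 lower, with a median log2 fold change of 0.60 against -0.06 over all genes, whereas H2afv itself had -0.28 (SE 0.48, adjusted p = 0.790 by edgeR's quasi-likelihood test). Over all genes 1.81% were called by genotype in either direction, and all of these calls were lost without any 1 of the 4 libraries named above. In Space 2 of these 37 were called lower and 0 higher. Of the 77 tested genes within 1 Mb of H3f3b, 5 were lower and 0 higher in Space, and 0 were called by genotype. The shares called lower in Space near both genes are close to the 5.31% over all genes.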

How the data were processed

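RNA from 8 mESC cultures was made into mRNA libraries and sequenced in read pairs. The authors aligned the reads to mm9 with TopHat2 (version 2.0.9) and deposited whole-number counts per Ensembl gene, without normalization; the counting program, the annotation and the use of strand are not given in the sources used here. Total counts per library were 58238440 to 96416907. Group comparisons (4 libraries against 4) used edgeR 4.0.16 (R 4.3.3): TMM factors, filterByExpr with a minimum count of 10, the quasi-likelihood test, and Benjamini-Hochberg adjustment over all 20544 genes. Since each condition has 1 library, p-values measure the spread between libraries that also differ in the other conditions. A prior count of 2 was added for log2 CPM. RPKM used the exon length of the GENCODE mm9 annotation, which also gave gene positions, coding sequences and 50-base words shared with other genes. Exact permutation tests were 2-sided. In a simulation of Space against Ground with 20544 genes, 27 of 100 genes changed 4-fold and 2 of 100 changed 2-fold were recovered, with 0 false calls, so most changes of either size were missed.

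Libraries matched in the other 2 conditions deviated together (correlations of 0.28 to 0.61 in all pairs), so fits with the pairs as a block are given where they change a call. The alternatives were DESeq2 1.42.0 (size factors; Wald test), library size alone, no filter, edgeR's exact test, additive covariates, each library left out and, chosen after seeing the data, a GC offset. The rule for named genes took all members, the listed partner genes past an adjusted p of 0.05, and the 3 genes most like each member; Rad9 and the cell type markers are named outside it as checks, and Dpagt1 was chosen after its values were seen. Symbols came from the gene names table, with 32722 of 50686 identifiers matched. The members and lists were chosen with earlier results of these data known. H1f0, whose identifier was not matched, is not analysed here. A result for 1 other gene is not reported here.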

Additional observations from a re-analysis of the deposited data

Results flagged for a closer look

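In groups of 4 libraries, a library was set apart where its gap to the nearest other, divided by the range of the log2 CPM values of the group, exceeded Dixon's 95% critical value. Of 54 such groups of members, 4 held such a library. Chance gives about 1 in 20 for independent groups of like libraries. These groups mix conditions and reuse the same 8 libraries, so that rate does not apply and the flags are a description only. Ground R9wt D1 was the highest Ground library for H2afx, at 759 CPM against 383 CPM in the next (gap over range 0.930), and for H3f3a, at 344 CPM against 228 CPM (0.908). H1fx was lowest in Space R9del D1 among the Space libraries, at 0.242 CPM (0.864), and in Ground R9wt D5 among the D5 libraries, with 0 counts (0.945).

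For H2afz and H1fx, matched libraries moved in opposite directions under 2 settings of another condition, without a test of the direction itself. H2afz was lower at D5 than at D1 on the Ground, by 0.86 and 0.36 on the log2 scale, and higher at D5 in Space (log2 ratios 0.37 and 0.33), a mean difference of -0.965; the interaction of location and duration had an adjusted p of 0.720 by edgeR's quasi-likelihood test. H1fx was lower in Space at D1 (log2 ratios -1.09 and -0.52) and not at D5, where the R9del pair had 0.17 and the R9wt pair rests on the library with 0 counts, a mean difference of -3.16 whose size is set by the prior count of 2. Between D5 and D1 the log2 ratios of H1fx were -0.11 in Space R9wt, negative against the library with 0 counts in Ground R9wt, and 0.50 and 1.19 in R9del, a mean difference of -3.77 whose size the prior count likewise sets.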

How the results depend on the processing

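Of 432 alternative fits of members, 380 kept direction and side of the threshold. H2afx, H2afv and H2afj were called lower in Space in all of theirs. H2afy was not, with DESeq2 size factors (-1.68, adjusted p = 0.0523), library size alone (-1.65, 0.0509), no filter (-1.73, 0.0683) and the GC offset, and without any 1 library other than Ground R9del D1 or Space R9wt D5. Members called lower in Space numbered 3 to 5 over all settings, in which 790 to 1586 of all genes were called lower. Members called lower in R9del numbered 1 (H2afy) with the replicate block or additive covariates, and 0 otherwise; the replicate block changed no other call of a member. Genes called by genotype numbered 214 higher and 157 lower, but 818 and 852 with the replicate block, and 0 without Ground R9wt D5, Ground R9del D1, Space R9wt D1 or Space R9del D1.

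The log2 fold changes that turned sign were all uncalled, and the causes were not tested. In Space, Cenpa had 0.035 with DESeq2 size factors, 0.069 with library size alone (0.060 as a difference of means), 0.053 with DESeq2, 0.014 with additive covariates and 0.13 with the GC offset; H3f3b had 0.017 with library size alone and 0.48 with the GC offset; H1fx had 0.45 with the replicate block, 0.0077 with additive covariates and 0.074 with the GC offset. At D5, H2afx had 0.15 with the replicate block and 0.079 with additive covariates, and H2afj -0.023 with the replicate block. Leaving out 1 library at a time gave ranges in Space of -0.16 to 0.15 for Cenpa, -0.56 to 0.86 for H1fx and -0.30 to 0.16 for H3f3b. In R9del they were -0.085 to 0.85 for H2afj, -0.52 to 0.23 for H2afv, -1.08 to 0.46 for H2afx, -0.0074 to 0.65 for H2afz and -0.36 to 0.13 for H3f3a. At D5 they were -0.95 to 0.021 for H1fx, -0.15 to 0.66 for H2afj, -1.02 to 0.60 for H2afx, -0.53 to 0.025 for H2afz and -0.48 to 0.019 for H3f3a. H1fx had 17 to 126 counts in the libraries where it was seen.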
